A study of Mus musculus with 16 samples.

Results

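The genes described here encode enzymes that break down the branched-chain amino acids leucine, isoleucine and valine, and were measured in gastrocnemius, a muscle of the calf. The 10 genes, among 27745 gene names on the array, were Bcat2, Bckdha, Bckdhb, Bckdk, Dbt, Ivd, Mccc1, Mccc2, Hibadh and Aldh6a1. Every noncontrol probe carrying a listed gene name was taken, which gave 17 of the 41174 noncontrol probes of the array. A filter on weak signals left 16 of these 17 probes and 19398 probes in all. Each of the 10 genes kept at least 1 probe, and the brightest probe stands for the gene unless stated otherwise. The 16 adult male C57BL/6N mice all ate a high-fat diet made with corn oil, with lipids at 35% of its weight and 10 mg of rosiglitazone per kg diet, for 8 weeks. Rosiglitazone is a thiazolidinedione drug that activates the nuclear receptor PPARγ. The 8 cHF+ROSI mice received nothing else, whereas for the 8 cHF+F+ROSI mice 15% of the dietary lipids were given as an n-3 LC-PUFA concentrate instead. All mice were fasted for 10 hours by day, re-fed Chow overnight and killed the next morning, so neither group was on its high-fat diet when the muscle was taken. The comparison therefore asks what n-3 LC-PUFA changed in mice that already received the drug, after a switch to Chow. Mice without rosiglitazone were not analysed here.

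Branched-chain amino acids are broken down largely outside the liver, and skeletal muscle is a main site of the initial step. The mitochondrial aminotransferase moves the amino group to 2-oxoglutarate and leaves a branched-chain oxoacid. The branched-chain oxoacid dehydrogenase complex then commits the carbon skeleton to oxidation, and a dedicated kinase switches that complex off by phosphorylation. Beyond this point the routes part, and leucine yields acetyl-CoA and acetoacetate, valine yields propionyl-CoA, and isoleucine yields both acetyl-CoA and propionyl-CoA. Raised circulating branched-chain amino acids are known to accompany obesity and insulin resistance.

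Each mouse was measured on its own two-colour array, with its RNA labelled by Cy5 against a Cy3-labelled pool of all diets, which also held mice on a higher dose of the drug. A value is the log2 ratio of the mouse to that pool, so levels of different genes cannot be set against each other. Per array, the median ratio of Cy5 signal to background was between 2.33 and 3.64, with the lowest value on the array of cHF+ROSI replicate 1, called the dim array here. The median Cy3 signal over background was lower, between 1.78 and 2.02. On each of the 4 slides positions 1 and 3 held cHF+ROSI mice, and 2 and 4 held cHF+F+ROSI mice, so diet and position cannot be told apart. The genes that mark fast and common myofibres were all measured, 8 of 8 with Cy5 signals at least 6794 times the background.

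The region before the start of each gene is shown first, as a description of the genes. A link between these sequences and the variation among the mice was not tested. RefSeq start sites on GRCm38.p6 gave a window for 9 of the 10 genes, the exception being Dbt, and the 250 bases before the start were searched on both strands for CCAAT (read ATTGG on the other strand), AGGTCA and GGGCGG. Where a gene had more than 1 start, the window nearest to its 5′ end was used. These motifs were chosen after the sequences had been seen. CCAAT was present in 7 of the 9 windows, against 33.8% of the 32851 windows of all genes, and 5 of the 9 held it at 2 or more places, against 10.1% of all windows. The set of all windows holds every listed start of a gene, with no such choice of window, so the shares are not drawn alike. AGGTCA was present in 1 of the 9 windows (Bckdhb) and in 14% of all windows. GGGCGG was present in 3 of the 9 windows and in 32.7% of all windows. The sequences of Aldh6a1 and Mccc2, which varied apart from the other genes, and of Ivd, Bckdk and Bckdha follow, 5′ to 3′, with every CCAAT or ATTGG in capitals.
Aldh6a1, chr12:84451025-84451274, minus strand: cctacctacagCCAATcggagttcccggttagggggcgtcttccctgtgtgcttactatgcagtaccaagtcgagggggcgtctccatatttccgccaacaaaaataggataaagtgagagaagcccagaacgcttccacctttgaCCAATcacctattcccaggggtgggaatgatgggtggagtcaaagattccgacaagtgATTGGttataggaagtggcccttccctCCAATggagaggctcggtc
Mccc2, chr13:100015640-100015889, minus strand: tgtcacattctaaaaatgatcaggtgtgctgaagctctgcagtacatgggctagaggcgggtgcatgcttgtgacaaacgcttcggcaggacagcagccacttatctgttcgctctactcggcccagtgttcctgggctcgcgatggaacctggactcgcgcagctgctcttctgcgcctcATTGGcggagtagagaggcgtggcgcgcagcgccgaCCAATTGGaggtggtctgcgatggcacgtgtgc
Ivd, chr2:118861744-118861993, plus strand: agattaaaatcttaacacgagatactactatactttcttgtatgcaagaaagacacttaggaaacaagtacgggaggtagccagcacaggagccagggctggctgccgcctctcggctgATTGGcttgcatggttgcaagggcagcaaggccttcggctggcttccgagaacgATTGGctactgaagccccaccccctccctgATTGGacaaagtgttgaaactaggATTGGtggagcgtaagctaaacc
Bckdk, chr7:127903823-127904072, plus strand: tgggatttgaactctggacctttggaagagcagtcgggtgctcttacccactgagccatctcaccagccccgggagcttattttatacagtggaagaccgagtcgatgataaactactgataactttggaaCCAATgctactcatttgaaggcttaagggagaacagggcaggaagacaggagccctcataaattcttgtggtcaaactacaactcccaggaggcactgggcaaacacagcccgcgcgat
Bckdha, chr7:25658762-25659011, minus strand: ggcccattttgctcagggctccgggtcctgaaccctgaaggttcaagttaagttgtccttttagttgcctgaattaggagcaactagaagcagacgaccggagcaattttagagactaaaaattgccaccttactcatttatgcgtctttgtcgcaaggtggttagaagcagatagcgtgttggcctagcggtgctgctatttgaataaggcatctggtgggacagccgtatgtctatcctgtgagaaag

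Aldh6a1 and Ivd each held the motif at 4 places, Mccc2 at 3 and Bckdk at 1, while the Bckdha and Bcat2 windows held none. In Ivd all 4 copies read ATTGG and lay within 131 bases of the start, and in Mccc2 a CCAAT and an ATTGG overlap. The motif was thus shared by genes of both sets described under the variation among mice. A match of letters is a description of the window and says nothing about binding in these muscles.

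Between mice with and without n-3 LC-PUFA, 0 of the 10 genes passed an adjusted p of 0.05 (limma, Benjamini-Hochberg over all 19398 probes), where 0.0155% of all probes did. Before adjustment 1 of the 10 genes, Aldh6a1, had a p within 0.05, beside 7.46% of all probes, and 1 of the 16 probes did. Aldh6a1 was higher in the cHF+F+ROSI mice, as were 3.5% of all probes at this threshold, and 0 of the 10 genes were lower, against 3.96% of all probes. By sign alone 6 of the 10 genes and 9 of the 16 probes were higher with n-3 LC-PUFA, against 49.2% of all probes. In 0 of the 10 genes did the values of the groups not overlap, compared with 0.0773% of all probes. The log2 fold changes lay between -0.15 for Bckdk and 0.16 for Aldh6a1, with a median of 0.06, and the median over all probes was -0.0014.

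**Figure D1:**
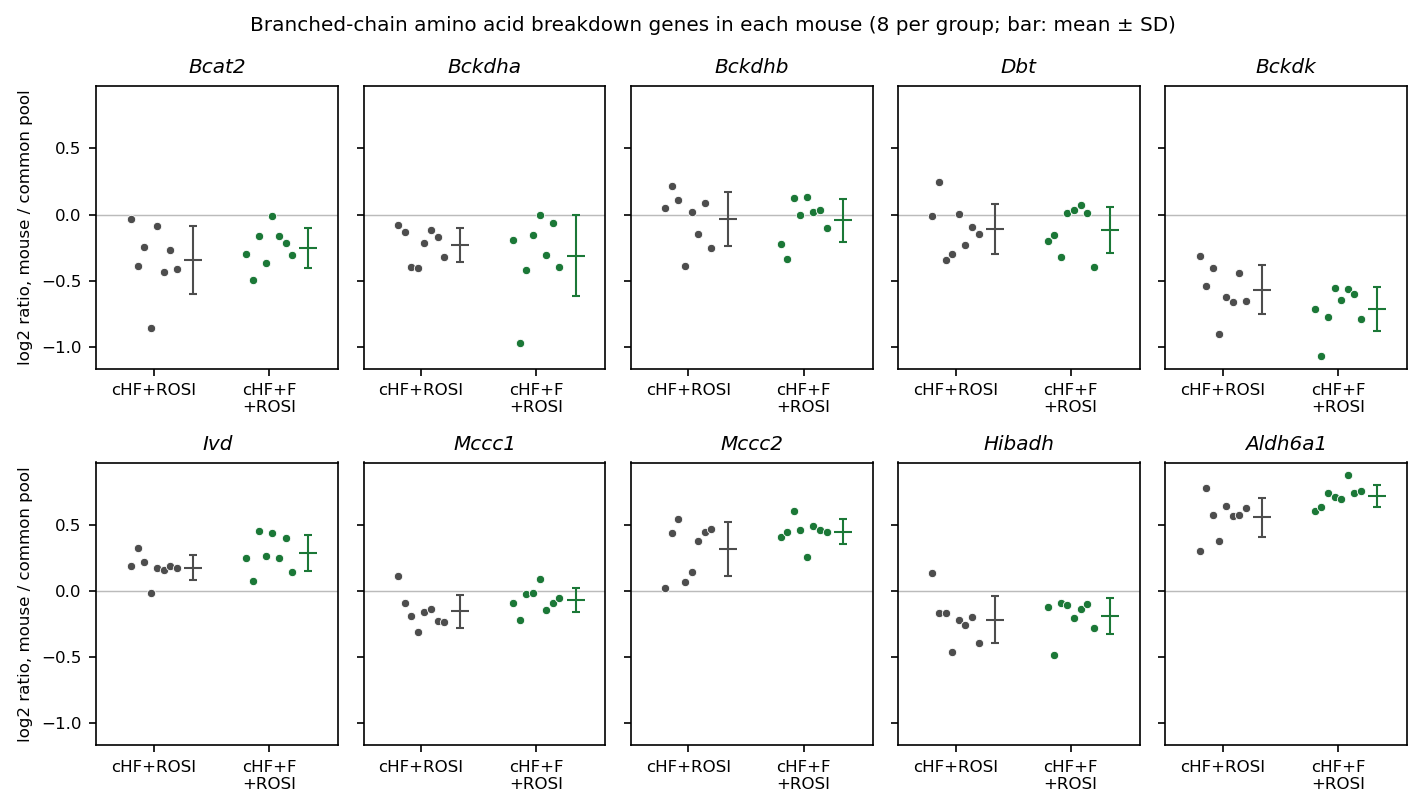
The log2 ratio of each mouse to the common pool on the vertical axis, for the brightest probe of the 10 genes, in 8 cHF+ROSI (grey) and 8 cHF+F+ROSI (green) mice, with mean and SD as bars. The groups overlap in every panel, and single low mice stand out in Bcat2, Bckdha and Bckdk.

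Bcat2 encodes the mitochondrial branched-chain aminotransferase, which takes the amino group off all of these amino acids. Its brightest probe (mm8, chr7:45457440-45457499) ranged from -0.86 to -0.03 in the cHF+ROSI mice, with a median of -0.33. In the cHF+F+ROSI mice it ranged from -0.50 to -0.01, with a median of -0.26. Of the 8 cHF+ROSI mice 7 lay within the range of the other group, and the lowest value belonged to cHF+ROSI replicate 4. The difference was 0.09 ± 0.10 (log2, SE), with a 95% confidence interval from -0.12 to 0.30 and an adjusted p of 0.88 in limma. It rested on cHF+ROSI replicate 4, without which it was 0.01, while without the dim array it was 0.13. A further probe of Bcat2 gave 0.05, and its deviations among the mice followed those of the brightest probe (r = 0.94, 16 mice). The probe that failed the filter, at 1.92 times the background in Cy3, gave 0.01 when no filter was used.

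The oxoacid dehydrogenase complex is built from Bckdha and Bckdhb, the subunits of its decarboxylase, and Dbt, its lipoyl-bearing core. Bckdha (chr7:25338835-25338894) ranged from -0.40 to -0.08 in the cHF+ROSI mice, with a median of -0.19. With n-3 LC-PUFA it ranged from -0.97 to -0.0021, with a median of -0.25. The cHF+F+ROSI mice were the more spread, with 2 of them above and 2 below all cHF+ROSI mice. The difference was -0.08 ± 0.11 (log2, SE; 95% interval -0.31 to 0.15), and without cHF+F+ROSI replicate 2, the mouse at -0.97, it was 0.01. Bckdhb (chr9:83919063-83920708) ranged from -0.39 to 0.22 in the cHF+ROSI mice, with a median of 0.04. With n-3 LC-PUFA the range was -0.33 to 0.13, with a median of 0.0065. Its groups lay over each other, with a difference of -0.0077 ± 0.09. Dbt (chr3:116541101-116541160), the dimmest of the brightest probes at 12.8 times the background in Cy5, ranged from -0.35 to 0.25 without and from -0.39 to 0.07 with n-3 LC-PUFA. Its medians were -0.12 and -0.07, and its difference was -0.0069 ± 0.09. The interval of Bckdhb ran from -0.19 to 0.18 and that of Dbt from -0.19 to 0.18, so a change of either beyond 1.2-fold lay outside both intervals.

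Bckdk encodes the kinase that inactivates the complex. Its only probe (chr7:127699434-127699493) ranged from -0.91 to -0.32 in the cHF+ROSI mice, with a median of -0.58. In the cHF+F+ROSI mice it ranged from -1.07 to -0.55, with a median of -0.68. In 6 of the 8 cHF+F+ROSI mice Bckdk was below the mean of the cHF+ROSI mice, and 1 mouse was below all of them. The difference was -0.15 ± 0.08 (log2, SE; 95% interval -0.32 to 0.03), the lowest among the 10 genes, with an adjusted p of 0.73 in limma and p = 0.1259 in a two-sided exact permutation test. The size of the Bckdk difference depended on single mice and on the processing. Without cHF+ROSI replicate 4, the lowest mouse of its group, it was -0.19 (unadjusted p of 0.023 and adjusted p of 0.66 in limma), and without cHF+F+ROSI replicate 2, the lowest of all, it was -0.10. Array weights gave -0.10, the authors' table -0.07, the Cy5 signal alone -0.07, and scaling the arrays to a common spread 0.14. The phosphatase that opposes the kinase, Ppm1k, differed by 0.18 ± 0.09 (log2, SE), with an unadjusted p of 0.074 in limma, and its other probe by -0.06.

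Leucine is taken further by isovaleryl-CoA dehydrogenase, encoded by Ivd, and by the biotin-containing methylcrotonyl-CoA carboxylase, whose subunits are encoded by Mccc1 and Mccc2. Ivd (chr2:118572703-118572762) ranged from -0.01 to 0.32 in the cHF+ROSI mice, with a median of 0.18. With n-3 LC-PUFA it ranged from 0.08 to 0.45, with a median of 0.26. Of the 8 cHF+F+ROSI mice, 3 were above all cHF+ROSI mice, and the others lay among them. The difference was 0.11 ± 0.06 (log2, SE; 95% interval -0.02 to 0.23), with an adjusted p of 0.71 in limma, but the other probe of Ivd gave -0.01, the Cy5 signal alone -0.02 and scale normalization -0.01. Its unadjusted p was 0.046 without cHF+ROSI replicate 2, 0.026 without cHF+F+ROSI replicate 2 and 0.048 without cHF+F+ROSI replicate 8, in limma.

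Mccc1 (chr3:36151426-36151485) ranged from -0.31 to 0.11 in the cHF+ROSI mice, with a median of -0.17. In the cHF+F+ROSI mice it ranged from -0.22 to 0.09, with a median of -0.07. In 7 of the 8 cHF+F+ROSI mice it was above the mean of the cHF+ROSI mice, whose highest value came from the dim array. The difference was 0.08 ± 0.06 (log2, SE; 95% interval -0.04 to 0.21), and without the dim array 0.12, with an unadjusted p of 0.021 and an adjusted p of 0.67 in limma. The other probe of Mccc1 gave 0.0056. Mccc2 (chr13:101061185-101064075) ranged from 0.03 to 0.55 in the cHF+ROSI mice, with a median of 0.41. With n-3 LC-PUFA the range was 0.26 to 0.60, with a median of 0.46. The medians of Mccc2 were thus close, and the lower mean of the cHF+ROSI mice came with 3 low mice, replicates 1, 4 and 5. Its difference was 0.13 ± 0.08 (log2, SE; 95% interval -0.03 to 0.29), with 7 of 8 cHF+F+ROSI mice above the cHF+ROSI mean, and its other probe gave 0.11. Without the low cHF+ROSI replicates 1 or 4 the difference of Mccc2 was 0.09 and 0.10, and without replicate 3, the highest of the group, it was 0.17, with an unadjusted p of 0.043 and an adjusted p of 0.70 in limma.

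The last steps of the valine route described here are carried out by hydroxyisobutyrate dehydrogenase, encoded by Hibadh, and by methylmalonate semialdehyde dehydrogenase, encoded by Aldh6a1. Hibadh (chr6:52475965-52476024) ranged from -0.46 to 0.13 in the cHF+ROSI mice, with a median of -0.21. With n-3 LC-PUFA it ranged from -0.48 to -0.09, with a median of -0.13. The highest value of Hibadh came from the dim array and the lowest from cHF+F+ROSI replicate 2, and the difference was 0.03 ± 0.08 (log2, SE; 95% interval -0.13 to 0.19). The sign of this difference was not settled, since it was -0.0086 without cHF+ROSI replicate 4, -0.02 with median centring and -0.05 with scale normalization. Leaving out the arrays with the highest and the lowest value, which by itself raises the difference, gave 0.12 (unadjusted p of 0.045 and adjusted p of 0.78 in limma).

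Aldh6a1 (chr12:85320633-85320692), a bright probe at 489 times the background in Cy5, had a positive log2 ratio to the pool in every mouse. Since all mice were labelled by Cy5 and the pool by Cy3, dye and level cannot be told apart in that sign. Aldh6a1 ranged from 0.31 to 0.78 in the cHF+ROSI mice, with a median of 0.58. In the cHF+F+ROSI mice it ranged from 0.60 to 0.88, with a median of 0.73. All 8 cHF+F+ROSI mice were above the cHF+ROSI mean, but only 1 was above every cHF+ROSI mouse, since cHF+ROSI replicate 2 reached 0.78. The difference was 0.16 ± 0.06 (log2, SE; 95% interval 0.03 to 0.29), or 1.12-fold, with an unadjusted p of 0.017 and an adjusted p of 0.57 in limma, and p = 0.0143 in a two-sided exact permutation test over the 12870 splits of the mice. Within the 4 slides, each with 2 arrays of either group, the difference of Aldh6a1 was between 0.08 and 0.23 and had the same sign on every slide. The same held for Ivd, at 0.0087 to 0.25, and for no other of the 10 genes. Without the dim array, where Aldh6a1 was lowest, the difference was 0.13. Its unadjusted p stayed at up to 0.05 in limma with each of the 16 arrays left out in turn, but not with median centring, nor with scale normalization, where the difference was -0.13.

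**Figure D2:**
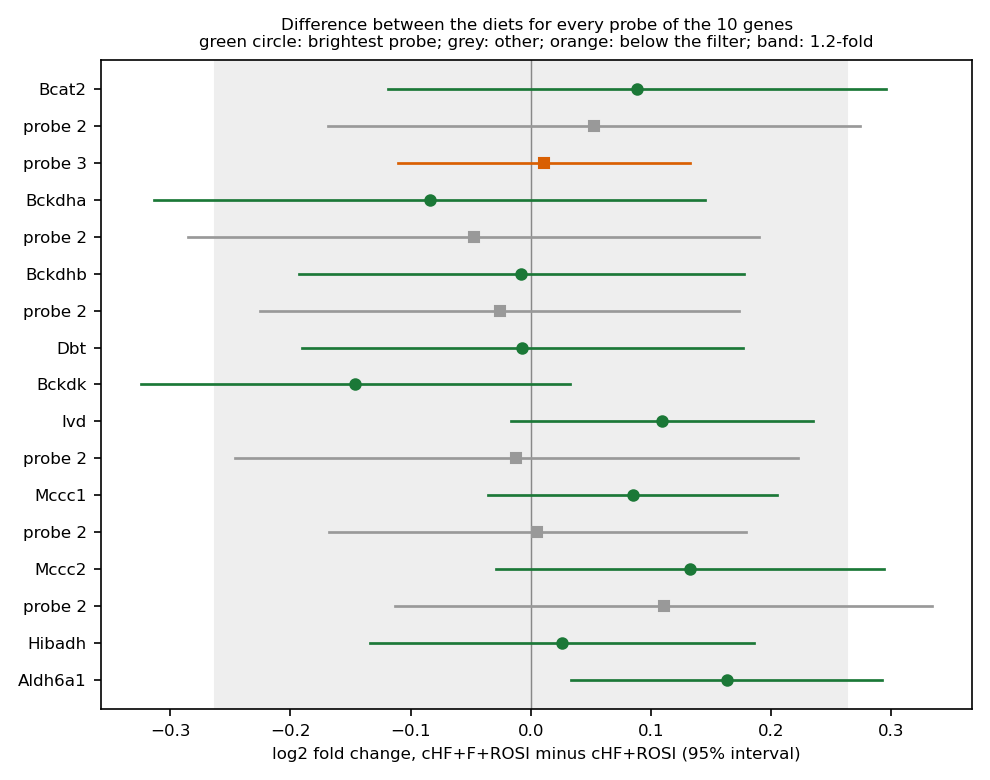
The log2 fold change of the 17 probes of the 10 genes, cHF+F+ROSI minus cHF+ROSI, with 95% confidence intervals from limma; the band marks a change of up to 1.2-fold either way. Of the 16 probes that passed the filter, 8 have their whole interval within the band, and the interval of Aldh6a1 alone leaves out 0.

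These intervals limit how large a change can have been missed on this scale, with the processing of the values reported. For 5 of the 10 genes (Bckdhb, Dbt, Ivd, Mccc1 and Hibadh) the 95% interval lay wholly within 1.2-fold either way, as it did for 70.2% of all probes. The differences of Ivd and Mccc1 were larger in the authors' table, at 0.18 and 0.16, and smaller with median centring, at 0.05 and 0.03. The bound is thus not given for other processing. The median absolute log2 fold change of the 10 genes was 0.09, against 0.05 over all probes, and their median SD within a group was 0.17, against 0.14. Both values were thus somewhat larger for the genes, and neither was tested as a set. The genes were read from their brightest probes, at 12.8 to 631 times the background in Cy5, while all probes include dim ones. The offset used makes changes of dim probes smaller, so the sets are not alike. The pool alone, read from Cy3, gave 0 of the 10 genes with an adjusted p of 0.05 in limma for the same split of the arrays (0% of all probes), and the unadjusted p values of the genes were between 0.12 and 0.98 (3.61% of all probes had one of up to 0.05). The log2 difference in Cy3 was 0.04 for Aldh6a1, -0.12 for Ivd and -0.09 for Bckdha.

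The steps around the 10 genes were read from lists of other genes. Of 21 other breakdown enzymes, 20 were measured, 2 were higher with n-3 LC-PUFA at an unadjusted p within 0.05, 0 were lower, and none passed adjustment. Their median log2 fold change was 0.02, against -0.0014 over all probes, and -0.02 with median centring. Of all probes 3.5% were higher at this threshold and 7.46% passed it in either direction, and the list itself was not tested as a set. Hibch, the hydrolase that frees hydroxyisobutyrate just ahead of Hibadh, averaged 0.21 ± 0.13 in the cHF+F+ROSI mice and 0.05 ± 0.08 in the cHF+ROSI mice (SD, n = 8), with 4 cHF+F+ROSI mice above all cHF+ROSI mice. Its difference was 0.16 ± 0.06 (log2, SE), with an unadjusted p of 0.011 and an adjusted p of 0.53 in limma. Acad8, the isobutyryl-CoA dehydrogenase, averaged 0.14 ± 0.10 and 0.02 ± 0.08 (SD, n = 8), with all 8 cHF+F+ROSI mice above the cHF+ROSI mean, and differed by 0.12 ± 0.05 (log2, SE; unadjusted p of 0.031, adjusted 0.62, in limma). Echs1, the hydratase that acts between Acad8 and Hibch on the same route, differed by 0.03 ± 0.10, with an unadjusted p of 0.80 in limma. Among genes whose brightest probe did not pass, Dld, the dehydrogenase subunit shared with the pyruvate and 2-oxoglutarate complexes, had 1 of 3 probes at an unadjusted p of 0.036 in limma (0.14) beside others at 0.09 and 0.19. Mut, the methylmalonyl-CoA mutase, had 1 probe at 0.14 and an unadjusted p of 0.016 in limma, and its brightest probe at 0.02.

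**Figure D3:**
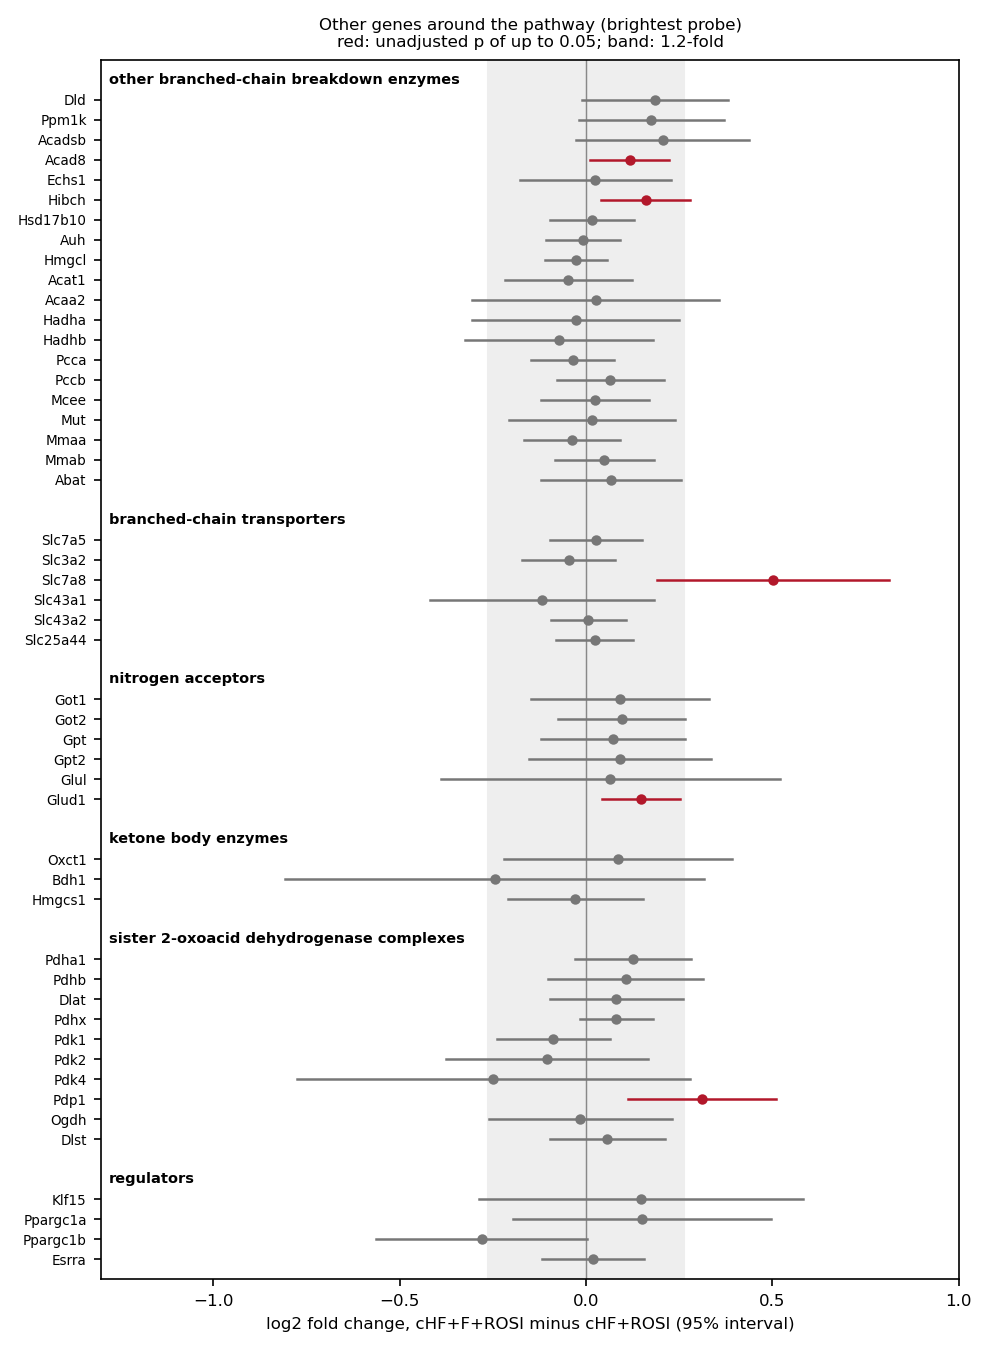
The log2 fold change, cHF+F+ROSI minus cHF+ROSI, with 95% intervals from limma for the brightest probe of each other gene of the pathway, by role. Acad8, Hibch, Slc7a8, Glud1 and Pdp1 (red) had an unadjusted p within 0.05, and none passed adjustment.

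Among 6 transporters of these amino acids 1 was higher and 0 lower at an unadjusted p within 0.05. This was Slc7a8, a light chain of the large neutral amino acid exchangers, which averaged 0.33 ± 0.34 in the cHF+F+ROSI and -0.17 ± 0.31 in the cHF+ROSI mice (SD, n = 8). Of the 8 cHF+F+ROSI mice, 6 were above all cHF+ROSI mice. The difference of Slc7a8 was 0.50 ± 0.15 (log2, SE), with an unadjusted p of 0.0034 and an adjusted p of 0.39 in limma. In cHF+ROSI replicate 7 Slc7a8 was at -0.86, with the next mouse of that group at -0.30. The study itself lists Slc7a8 as higher from these same arrays, and the transporters were chosen with earlier results known. The count of 1 is therefore no separate evidence. Slc25a44, the mitochondrial carrier of branched-chain amino acids, differed by 0.02 ± 0.05, and Slc7a5, the main uptake route in many tissues, by 0.03 ± 0.06. The Slc7a5 probe was dim, at 5.30 times the background in Cy5 and 2.40 in Cy3. Its difference was 0.19 with median centring (unadjusted p of 0.15 in limma) and 0.01 with scale normalization. All 6 genes that receive or pass on the nitrogen were higher by sign, with a median log2 fold change of 0.09, and 1 of them, Glud1, had an unadjusted p within 0.05, where 49.2% of all probes were higher by sign and 7.46% had such a p. The list itself was not tested. Glud1, the glutamate dehydrogenase, averaged 0.09 ± 0.09 and -0.06 ± 0.09 (SD, n = 8) and differed by 0.15 ± 0.05 (log2, SE; unadjusted p of 0.0081, adjusted 0.47, in limma).

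Of 10 measured genes of the related pyruvate and 2-oxoglutarate dehydrogenase complexes and their regulators, 1 was higher and 0 lower at an unadjusted p within 0.05. At this threshold 3.5% of all probes were higher and 3.96% lower. Pdp1, a phosphatase that switches the pyruvate complex on, averaged 0.84 ± 0.13 in the cHF+F+ROSI and 0.53 ± 0.25 in the cHF+ROSI mice (SD, n = 8), and 5 cHF+F+ROSI mice were above all cHF+ROSI mice. It differed by 0.31 ± 0.09 (log2, SE; unadjusted p of 0.0040, adjusted 0.41, in limma), beside 0.13 ± 0.07 for Pdha1, a subunit of the complex itself. A second probe of Pdhx, the binding protein of that complex, also had an unadjusted p of 0.047 in limma, at 0.11. Of 3 measured genes of ketone body metabolism 0 passed, and Bdh1, the hydroxybutyrate dehydrogenase, had the largest difference by size at -0.25 ± 0.27. Of 4 regulators of oxidative genes 0 passed, and Ppargc1b, a coactivator, had the largest difference by size at -0.28 ± 0.13, with an unadjusted p of 0.052 in limma. Klf15, a transcription factor known to drive branched-chain amino acid breakdown in muscle, differed by 0.15 ± 0.21, and by -0.12 with scale normalization. The higher values of Acad8, Hibch, Slc7a8, Glud1 and Pdp1 kept their direction under both of these normalizations, but with median centring the unadjusted p in limma was 0.25 for Hibch and 0.25 for Glud1, and with scale normalization it was 0.051 for Acad8, 0.096 for Hibch and 0.48 for Pdp1.

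Among the mice of a group most of the 10 genes varied together. Deviations from the group means were correlated over the 16 mice, as a description with no test, and all arrays share the pool and the normalization. Over all 45 pairs of the 10 genes r was between -0.34 and 0.86, with a median of 0.46. Over all pairs of the 19310 probes measured in all 16 mice the median was 0 and the quartiles were -0.26 and 0.27. The pairs over all probes were not matched to the 10 genes in brightness or function. Without the 2 mice lowest in these genes, cHF+ROSI replicate 4 and cHF+F+ROSI replicate 2, the median over the 45 pairs was 0.28. The genes were then split by these same correlations, so the split is a description. Among Bcat2, Bckdha, Bckdhb, Bckdk, Dbt, Ivd, Mccc1 and Hibadh the 28 pairwise r values were between 0.32 and 0.86, with a median of 0.61. Within the groups this median was 0.68 in the cHF+F+ROSI and 0.66 in the cHF+ROSI mice. The closest pair was Bckdk and Hibadh (r = 0.86), followed by Bckdhb and Ivd (r = 0.83). Aldh6a1 and Mccc2 stood apart from these 8 genes, with r between -0.34 and 0.45 over 16 pairs and a median of 0.11. With each other their r was 0.62 over the 16 mice, 0.69 in the cHF+ROSI and 0.36 in the cHF+F+ROSI mice. In the cHF+F+ROSI mice r of Aldh6a1 with the 8 genes was between 0.0030 (Mccc1) and 0.56 (Bckdhb). The carboxylase subunits Mccc1 and Mccc2, which form 1 enzyme, had the lowest r of all 45 pairs, -0.34.

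**Figure D4:**
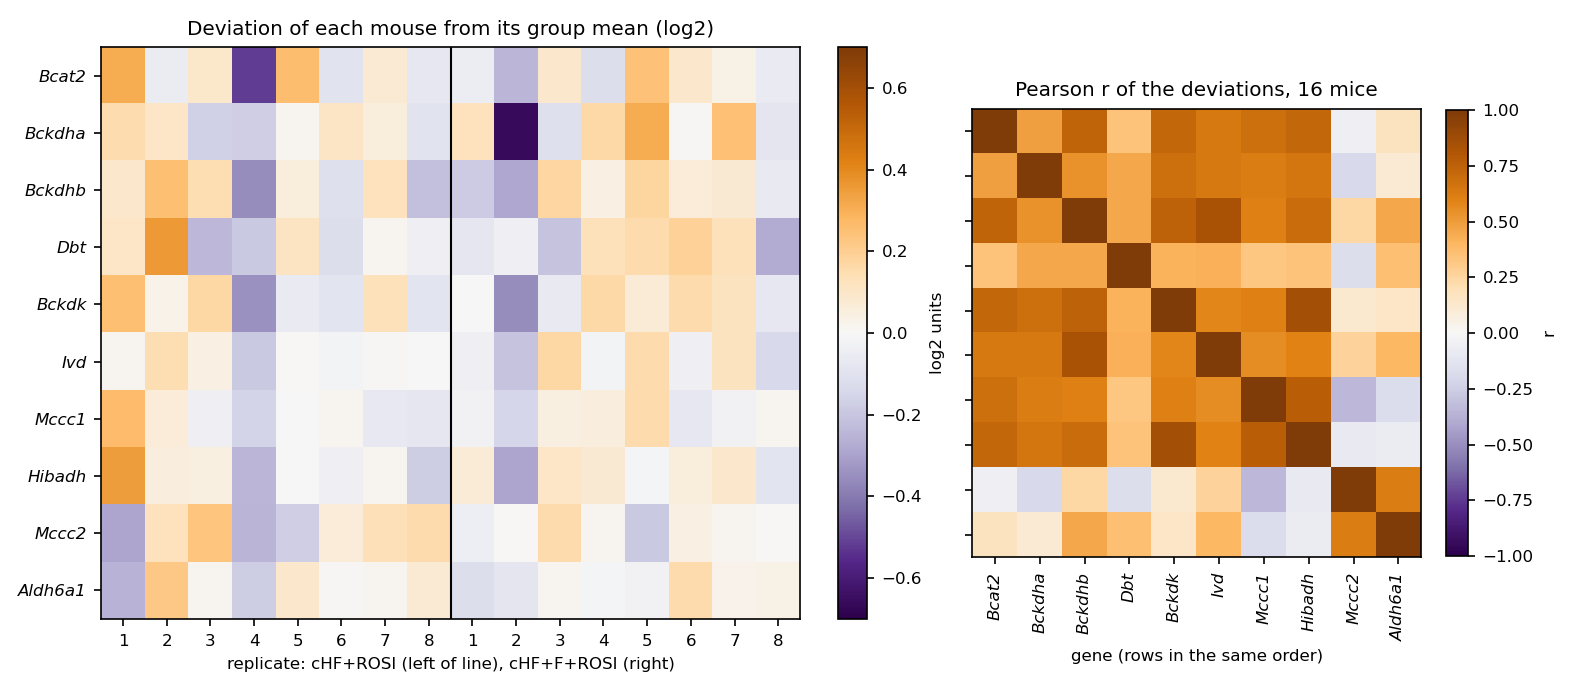
Left, the deviation of each mouse from its group mean in log2 units for the 10 genes (rows), with the cHF+ROSI mice left and the cHF+F+ROSI mice right of the line; right, Pearson r of these deviations over 16 mice. Most of the 8 upper genes are low in cHF+ROSI replicate 4 and cHF+F+ROSI replicate 2, and Mccc2 and Aldh6a1 form a block of their own.

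A few mice carried much of this pattern. Averaged over the 10 genes, cHF+ROSI replicate 4 deviated by -0.26 and cHF+F+ROSI replicate 2 by -0.23 from their groups, while the other 14 mice deviated by -0.07 to 0.13. Without these 2 mice the median r among the 8 genes was 0.37 in place of 0.61, and the r of Bckdk and Hibadh was 0.71, while the median r of Aldh6a1 and Mccc2 with the 8 genes was -0.34. On the dim array the genes split, with Aldh6a1 and Mccc2 at the lowest and Bcat2, Bckdha, Bckdk, Mccc1 and Hibadh at the highest value of the cHF+ROSI group. Without it the median r of Aldh6a1 and Mccc2 with the 8 genes was 0.34 in place of 0.11, their own r was 0.47, and the r of Mccc1 and Mccc2 was -0.0033. The r of Aldh6a1 with the 8 genes was then between 0.25 (Bckdha) and 0.65 (Bckdhb). The separation of Aldh6a1 and Mccc2 from the others was therefore smaller without that array and larger without the 2 low mice.

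The mouse cHF+F+ROSI replicate 2 also stood out in slow fibre genes, most of which code for contractile proteins of slow fibres. The mean log2 ratio of the 9 slow fibre genes was between -2.14 and 0.23 in the cHF+F+ROSI and between -1.36 and 0.68 in the cHF+ROSI mice, and that mouse was the lowest. Of these 9 genes, 8 were by sign lower with n-3 LC-PUFA (9 with median centring and with scale normalization), 0 at an unadjusted p within 0.05. Over all probes 49.2% were higher by sign, and the list was not tested as a set. In whole muscle, fewer cells of a type and less RNA per cell cannot be told apart. Over the 16 mice, deviations of Hibadh followed those of the slow fibre genes (Pearson r = 0.72, permutation p = 0.0041, adjusted 0.041 over 20 relations; Spearman rho = 0.61, permutation p = 0.012, adjusted 0.12). For Bckdk, Bckdha and Bckdhb r was 0.61, 0.59 and 0.58, each with an adjusted permutation p above 0.05 (0.062, 0.080 and 0.062). For Ivd and Bcat2 r was 0.54 and 0.52 (adjusted 0.074 and 0.080), and Bcat2 had the highest rho, 0.66 (adjusted 0.12). For Aldh6a1, Mccc2 and Dbt r was -0.09, 0.01 and -0.15. Without the 2 mice farthest out in slow fibre genes, cHF+F+ROSI replicate 2 and cHF+ROSI replicate 8, r was 0.47 for Bcat2, 0.46 for Hibadh (permutation p = 0.092), 0.41 for Ivd, 0.37 for Bckdk, 0.27 for Bckdhb and 0.0065 for Bckdha. The relation of Hibadh thus no longer had a p within 0.05, that of Bckdha rested on those mice, and the r of Bcat2 moved little.

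Against the mean of 12 mitochondrial genes the order was similar. Hibadh again had an adjusted permutation p below 0.05 (Pearson r = 0.67, permutation p = 0.0036, adjusted 0.041; Spearman rho = 0.57, adjusted 0.12), and r was 0.68 for Bckdha, 0.62 for Ivd, 0.17 for Aldh6a1 and 0.07 for Mccc2. Without the same 2 mice r was 0.41 for Hibadh (permutation p = 0.15), 0.36 for Bckdha and 0.52 for Ivd. With Spearman's rho 0 of the 20 relations passed adjustment. Of the mitochondrial genes themselves 10 of 12 were higher by sign with n-3 LC-PUFA (8 with median centring, 7 with scale normalization), and 1 was lower at an unadjusted p within 0.05, Vdac1, an outer membrane channel, at -0.38 ± 0.14 (log2, SE; unadjusted p of 0.013, adjusted 0.54, in limma). Over all probes 49.2% were higher by sign and 3.96% were lower at this threshold, and the list was not tested as a set. A further probe of Vdac1 gave -0.38, and 1 of 3 probes of Atp5b, a subunit of ATP synthase, had an unadjusted p of 0.020 in limma, at 0.20.

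**Figure D5:**
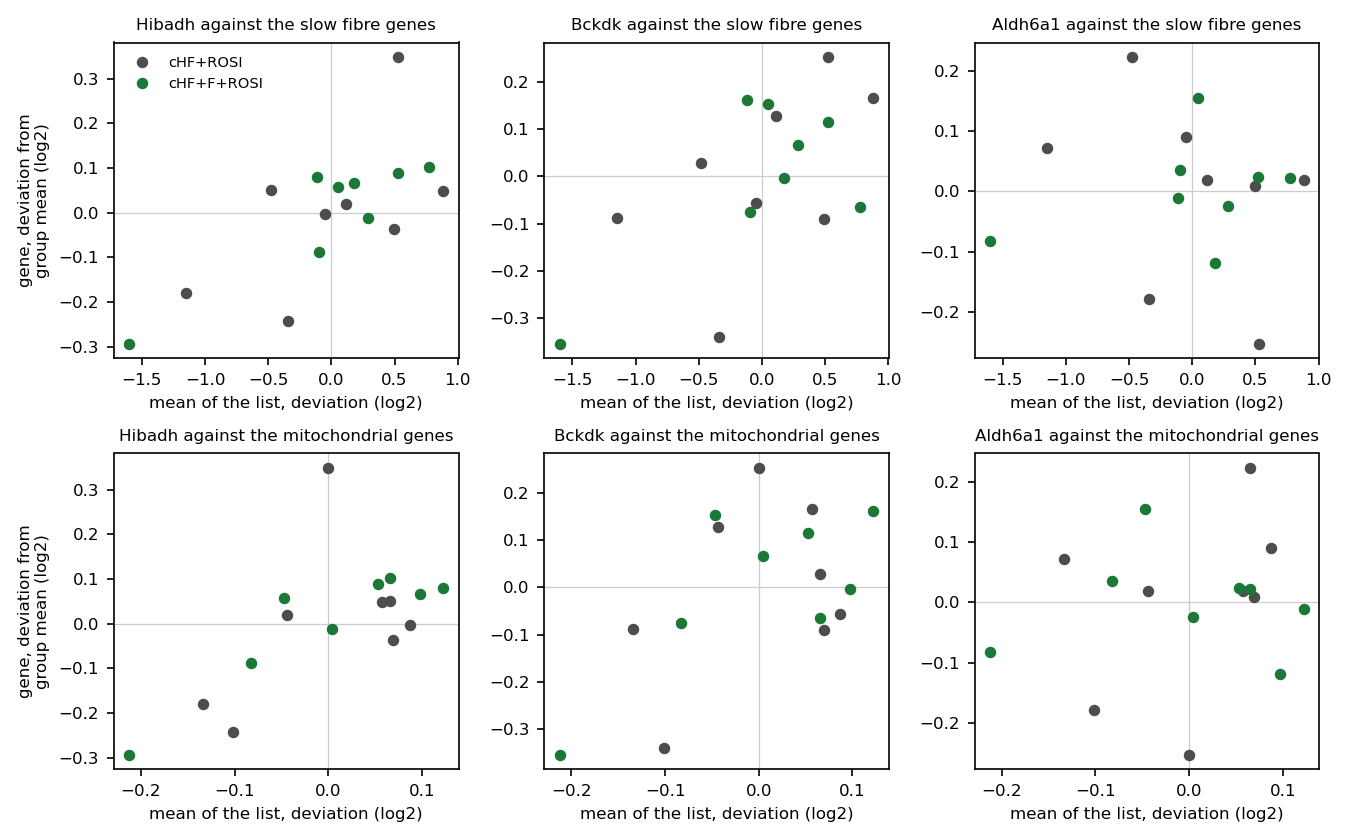
Deviation of Hibadh, Bckdk and Aldh6a1 from the group mean against that of the mean of the 9 slow fibre genes (top) and the 12 mitochondrial genes (bottom), log2 units, 1 point for each of 16 mice. Hibadh and Bckdk share their lowest point, cHF+F+ROSI replicate 2, with both lists.

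Genes of other cell types were read beside these values, and their part in the results was not tested. Of 4 endothelial genes, 4 were by sign lower with n-3 LC-PUFA and 2 at an unadjusted p within 0.05, with a mean log2 ratio between -0.35 and -0.07 against -0.28 and 0.05. Over all probes 49.2% were higher by sign, and at this threshold 3.5% were higher and 3.96% lower. None of these lists was tested as a set. Of 8 adipocyte genes 6 were higher by sign and 0 passed, with means between -1.27 and 0.91 in the cHF+F+ROSI and between -0.94 and 0.30 in the cHF+ROSI mice. Of 4 macrophage, 4 fibroblast and 3 red blood cell genes 0 passed in either direction.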

How the data were processed

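RNA of gastrocnemius muscle was hybridised on 16 Agilent two-colour arrays, 8 for cHF+F+ROSI and 8 for cHF+ROSI mice, grouped by the sample labels. The authors deposited spot intensities from Agilent Feature Extraction (10.5.5.1 per the labels, 10.5.1.1 per the file headers) and a table of log2 values normalized in GeneMaths XT, whose 24377 probes were those with an average signal over background of at least 2. Probe coordinates are those of the files, on mm8, and probe sequences and an annotation of that build were not used here. The cHF+ROSI group was also measured in another array comparison of the same experiment.

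From the median intensities, background was corrected by normexp (offset 50), control spots (weight 0) and outlier-flagged spots were left out, the 20703 of 43379 spots whose signal averaged 2 or more times the background in Cy5 and in Cy3 were used, loess was run on each array, and spots of a probe were averaged. The offset makes changes of dim probes smaller. Groups were compared by lmFit and eBayes of limma 3.58.1 (R 4.3.3) with Benjamini-Hochberg adjustment, no covariate, and single genes also by an exact permutation test, whose smallest possible p is 0.0001554. Relations among mice used 100000 resamples within groups. With 1 array a mouse, the number of arrays limits precision. No 2 arrays held identical ratios. The steps were also run on data with artificial changes, and no outcome is given here. That run therefore does not show whether differences as small as those of the listed genes would be found. Genes were found by array name or, for the lists, also by RefSeq accession, which matched 24375 of 41174 probes. Promoters are RefSeq, GRCm38.p6.

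The 10 genes and all lists were chosen with earlier results of these data known. Named were all 10 genes, every listed pathway gene with a probe at an unadjusted p within 0.05 and, for a list without one, the gene with the largest difference; Ppm1k, Slc25a44, Slc7a5, Pdha1, Klf15 and Echs1 were added after their values were seen. Alternatives covered background correction, normalization, filters, blocks for slide or replicate number, the methods' t-test, array weights, the authors' table and each array left out.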

Additional observations from a re-analysis of the deposited data

Results flagged for a closer look

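In 34 sets of 8 mice (the 10 genes, 5 other genes of the pathway and the slow fibre and mitochondrial lists, in each group), 4 had an extreme value set off from the rest by more than Dixon's 95% critical value, where chance gives about 1.7. In cHF+F+ROSI replicate 2 the log2 ratio of Bckdha was -0.97, with the next mouse at -0.42, that of Bckdk was -1.07, with the next at -0.79, and the mean of the slow fibre genes was -2.14, with the next at -0.66. These 3 values come from 1 mouse. In cHF+ROSI replicate 7 the log2 ratio of Slc7a8 was -0.86, with the next mouse at -0.30.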

How the results depend on the processing

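No setting brought any of the 10 genes to an adjusted p of 0.05, with 0 under each of the 14 processing alternatives and with each of 16 arrays left out, where 3 of all probes passed in the values reported and 0 to 19 under the alternatives. Over all probes 1447 (7.46%) had an unadjusted p within 0.05, but 820 (4.23%) with median centring and 956 (4.93%) with scale normalization. The methods' t-test gave 1 of the 10 genes at its threshold (7.55% of all probes) and 0 after Benjamini-Hochberg adjustment. Before adjustment, the number at a p within 0.05, 1 in the values reported, was 0 with median centring and with scale normalization, 2 without background correction and with Feature Extraction's processed signals (Mccc2 added), 3 with array quality weights (Ivd and Mccc1 added), 4 in the authors' normalized table (Ivd, Mccc1 and Mccc2 added) and 4 without both arrays that stand apart, chosen after seeing the data (Ivd, Mccc1 and Hibadh added). With single arrays left out it was 1 to 2, and 2 without cHF+ROSI replicates 1, 2, 3 and 4 and cHF+F+ROSI replicates 2 and 8. Of the other pathway genes, 5 in the values reported, 3 passed with median centring, 2 with scale normalization, 9 in the authors' table and 8 without both arrays.

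The log2 fold change of 7 genes turned its sign under at least 1 alternative, for Bckdk and Aldh6a1 with scale normalization only. Without background correction Bckdhb was 0.0072 and Dbt 0.0049; with processed signals they were 0.030 and 0.0077, with array weights 0.030 and 0.0075, and by the authors' normalization 0.058 and 0.015. With median centring Dbt was 0.023 and Hibadh -0.023. Scale normalization gave 0.039 for Bckdha, 0.14 for Bckdk, 0.0090 for Dbt, -0.012 for Ivd, -0.048 for Hibadh and -0.13 for Aldh6a1. The Cy5 signal alone gave 0.0057 for Bckdhb, 0.023 for Dbt and -0.016 for Ivd. Without both arrays Bckdha was 0.032, Bckdhb 0.046 and Dbt 0.013. With single arrays left out Bckdha ranged from -0.13 to 0.011, Bckdhb from -0.058 to 0.034, Dbt from -0.041 to 0.044 and Hibadh from -0.0086 to 0.076. Bcat2, Mccc1 and Mccc2 kept their sign under every alternative run, with Bcat2 between 0.01 and 0.13 when single arrays were left out. The cause of these turns was not tested.

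Of the 20 relations to slow fibre and mitochondrial genes, 2 passed adjustment in the values reported, 7 with median centring, 1 with scale normalization, and 0 with processed signals, the Cy5 signal alone or no filter. These alternatives to the relations were chosen after seeing the data.

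Replicate numbers were not treated as pairs of mice. The deviations of same-numbered mice were correlated above 0.1 in 4 of 8 pairs (-0.34 to 0.73). This was not tested and cannot decide whether the numbers pair the mice. With the replicate number as a block 0 of the 10 genes passed an adjusted p of 0.05. Before adjustment 1 of them, Aldh6a1 at 0.16, and 6 other pathway genes passed, beside 7.36% of all probes. The weak Cy3 signal limits what can be read for Bcat2 and Dbt, at 5.58 and 4.42 times the background.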
